A study of Mus musculus with 3 samples.

Results

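The stomach and the esophagus are neighbouring organs of the foregut, and their primordia were compared here in ICR mouse embryos at E11.5. The comparison rested on 2 of the 3 arrays of the study, the stomach array and the esophagus array, with 1 array for each organ. The third array, of the intestine primordium, is quoted for context and also entered the choice of the probe for each gene. The labels record no transgene and no treatment, and the embryos were staged by the day of the vaginal plug. The number of embryos behind each RNA sample, any pooling and the sex of the embryos were not given in the labels, and the extraction text named the stomach for every sample, so the organ was taken from each sample's title. Total RNA was labelled with Cy3 and hybridised to 1-colour Agilent mouse arrays. All arrays sat on 1 slide and were scanned together, so place on the slide and organ cannot be told apart. Genes entered the comparison if their probe stood well above background on the stomach array, the esophagus array or both, which gave 13737 genes of the 16998 with a named probe. Where a gene had several probes, the one with the highest mean level over all 3 arrays stood for it, and a probe needed a value on all 3. With 1 array per organ no difference had a replicate check and no test was run. In RNA from whole dissected tissue, fewer cells of a type and less RNA per cell cannot be told apart.

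Levels are given throughout as log2 of the processed signal relative to the array's 75th percentile, and a difference is the stomach level minus the esophagus level. Levels of different genes come from different probes and are not set against each other. The esophagus, stomach and intestine arrays had 69.3%, 67.9% and 74.0% of spots well above background. Probes with 8 or more spots had a median SD over spots of 0.087 log2 units on the esophagus array and 0.077 on the stomach array, and the difference between the arrays had a median SD of 0.12 over spots. Different probes of a gene agreed less well: over 4619 genes the SD of their differences had a median of 0.25. Where a probe was dim on 1 array, the difference is a bound, written as at least N-fold, and such bounds are also marked among the log2 values. Over all genes the median difference stood at 0.15, and of the 12923 genes measured on both arrays 92.0% lay within 2-fold. List counts include members at a bound, which entered through the array where they were high, and a bound under 2-fold is not counted as within 2-fold. The shares of all 13737 genes to set beside the list counts are 4.14% higher and 5.71% lower by 2-fold or more. At 4-fold these shares are 0.684% and 1.58%. No 2-fold share of all genes after normexp correction is given here, so the list counts after that correction have none beside them.

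The stomach and esophagus form from 1 continuous endodermal tube wrapped in mesenchyme, and signals pass in both directions between these layers. Barx1 is a homeobox gene of stomach mesenchyme that restrains Wnt signalling and respiratory fate in the overlying endoderm. Nkx6-2 and Tlx1 encode further homeobox factors, Tlx1 being needed for the spleen that grows beside the stomach. Tbx1 is a T-box factor of the pharynx and anterior mesoderm, and Trp63 is the master regulator of basal cells in stratified epithelium such as that of the esophagus.

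These 5 genes had been named as markers of the organs. Barx1, Nkx6-2 and Tlx1 read higher in stomach, and Tbx1 and Trp63 read higher in esophagus. Barx1 stood at 4.43 in stomach and 0.87 in esophagus, a difference of 3.57. Nkx6-2 stood at 2.24 in stomach and was not well above background in esophagus, which made it at least 265-fold higher in stomach. Tlx1 was also dim in esophagus, stood at −1.77 in stomach and was at least 16.4-fold higher there. Tbx1 stood at 3.60 in esophagus and −0.94 in stomach, a difference of −4.54. Trp63 stood at 0.25 in esophagus and −2.21 in stomach, a difference of −2.46. The intestine array gave −4.39 for Barx1 and −2.16 for Nkx6-2 and was dim for Tlx1 and Trp63. With the normexp background model, which pulls dim genes together, Tlx1 stood at 1.55 and Trp63 at −1.67, both inside 4-fold.

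The 250 bases upstream of the annotated start of marker genes are shown, from the RefSeq promoter windows of build GRCm38.p6. Barx1, Nkx6-2, Tlx1 and Tbx1 are given because they had been named as markers of the organs. No window was matched for Trp63, the remaining marker. Tbx1 has 2 annotated starts, and both are given. Capitals mark matches, on either strand, to the TATA box letters TATAAA, to the letters CCAAT of the box of that name, to the homeodomain core TAATTA or to the GATA site AGATAA, and no 2 matches overlapped. The windows read 5′ to 3′ on the strand of the gene.
Barx1, chr13:48662786-48663035, plus strand: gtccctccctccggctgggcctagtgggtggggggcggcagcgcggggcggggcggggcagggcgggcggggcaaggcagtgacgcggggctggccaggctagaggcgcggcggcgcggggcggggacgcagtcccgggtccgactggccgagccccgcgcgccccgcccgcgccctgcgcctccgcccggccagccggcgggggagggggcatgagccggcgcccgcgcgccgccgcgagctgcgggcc
Nkx6-2, chr7:139582798-139583047, minus strand: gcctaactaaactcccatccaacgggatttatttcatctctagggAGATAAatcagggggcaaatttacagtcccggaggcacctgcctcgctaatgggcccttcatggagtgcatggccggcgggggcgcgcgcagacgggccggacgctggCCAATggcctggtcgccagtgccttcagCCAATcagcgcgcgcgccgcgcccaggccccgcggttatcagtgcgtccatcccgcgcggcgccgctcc
Tlx1, chr19:45150465-45150714, plus strand: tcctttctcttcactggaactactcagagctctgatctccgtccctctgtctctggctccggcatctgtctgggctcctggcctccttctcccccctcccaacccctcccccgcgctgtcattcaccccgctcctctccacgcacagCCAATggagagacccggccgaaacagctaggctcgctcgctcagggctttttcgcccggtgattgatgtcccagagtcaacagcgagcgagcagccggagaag
Tbx1, chr16:18588900-18589149, minus strand: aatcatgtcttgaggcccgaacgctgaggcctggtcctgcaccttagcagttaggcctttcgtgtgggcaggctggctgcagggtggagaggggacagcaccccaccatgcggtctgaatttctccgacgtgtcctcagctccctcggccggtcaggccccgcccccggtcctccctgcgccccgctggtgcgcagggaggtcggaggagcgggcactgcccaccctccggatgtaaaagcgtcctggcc
Tbx1, chr16:18590672-18590921, minus strand: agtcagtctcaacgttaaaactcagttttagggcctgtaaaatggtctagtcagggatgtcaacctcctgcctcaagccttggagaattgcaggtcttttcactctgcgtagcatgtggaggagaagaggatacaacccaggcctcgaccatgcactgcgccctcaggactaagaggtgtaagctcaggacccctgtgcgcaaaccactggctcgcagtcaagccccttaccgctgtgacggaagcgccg

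The Barx1 window was 85.6% G or C and held none of the 4 motifs. The Nkx6-2 window was 65.2% G or C, with CCAAT starting 97 and 69 bases before the start of transcription and AGATAA starting 205 bases before it. The Tlx1 window held CCAAT starting 103 bases before the start. Neither Tbx1 window held a match. Across all 32851 windows, TATAAA was found in 12.4%, CCAAT in 33.8%, TAATTA in 4.84% and AGATAA in 9.99%. Among the compared genes with a window, 1 window each, TATAAA was found in 7.87% of 10916. It was found in 12.7% of the 71 genes with a window that were higher by a factor of 4 or more in stomach and in 13.5% of the 163 that were lower by 4-fold or more. AGATAA was found in 6.46% of all compared genes with a window, 14.1% of those higher and 9.2% of those lower. CCAAT was found in 36.1%, 40.8% and 31.9% of the same sets and TAATTA in 3.05%, 4.23% and 4.29%. These shares are descriptions of the letters in the windows and were not tested.

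Genes lower by a factor of 4 or more in stomach outnumbered those higher by 4-fold or more. Of the 13737 genes, 94 (0.684%) were higher by a factor of 4 or more in stomach and 217 (1.58%) were lower by 4-fold or more. At 2-fold the counts were 569 (4.14%) higher and 784 (5.71%) lower. Dim genes made up a large share of the 4-fold genes, with 56 of those higher and 117 of those lower among the 3435 genes of lowest signal and 4 and 6 among the 3435 of highest signal. Of the genes measured by at least 2 probes on both arrays, 12 were higher by a factor of 4 or more, and for 8 of them every probe was. Another probe had the opposite sign for 2 of the 12. Among the 27 lower by 4-fold or more, every probe was that much lower for 15, and none had a probe with the opposite sign. After normexp correction the counts were 28 higher and 60 lower, of which 28 and 59 were among the genes counted before. Centring each array on its median instead moved the median of all genes from 0.15 to 0.35 and the counts to 125 higher and 176 lower, so that 41.5% of the 4-fold genes were higher in stomach against 30.2% before.

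**Figure D1:**
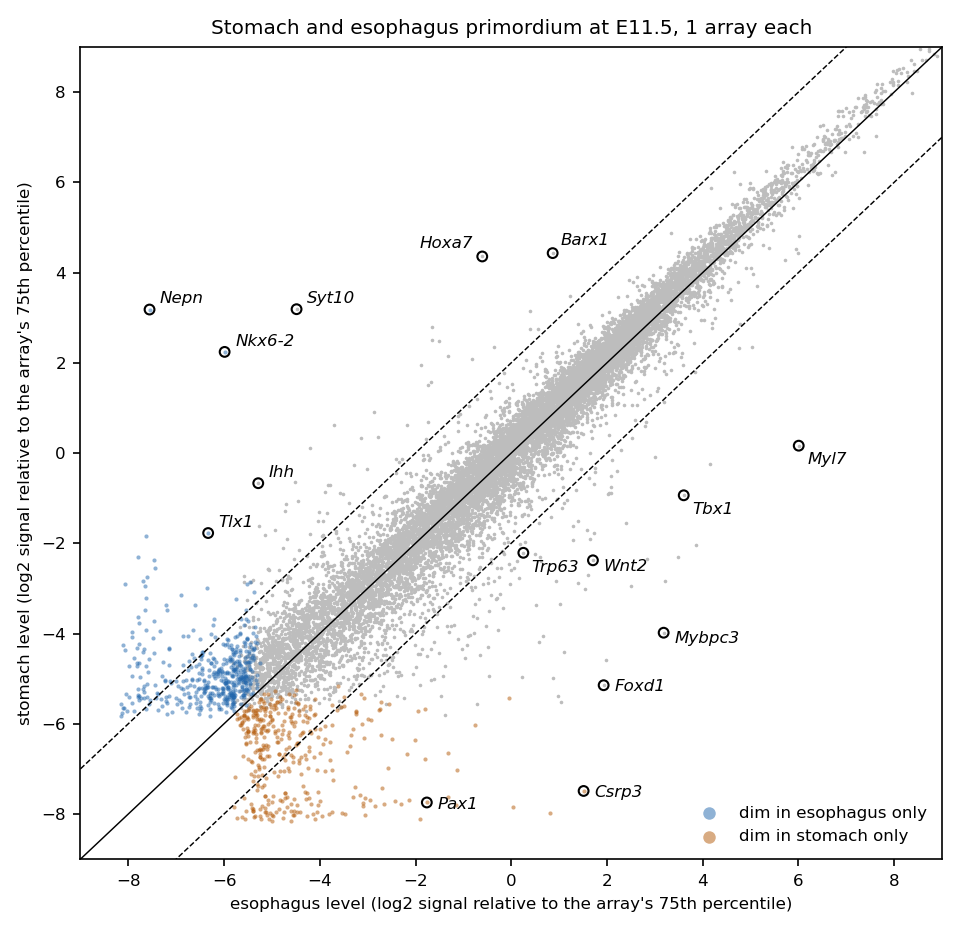
Each point is 1 of the genes compared, with its level in esophagus on the horizontal axis and in stomach on the vertical axis, both as log2 signal relative to the array's 75th percentile. The solid line marks equal levels and the dashed lines a 4-fold difference, grey points were measured on both arrays and coloured points were dim on 1 of them. Nepn, Syt10 and Nkx6-2 lie far above the upper dashed line and Csrp3, Foxd1 and Mybpc3 far below the lower one.

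Many transcription factors of the stomach mesenchyme were higher in stomach. In the list of stomach regulators 8 of 13 members measured were higher by a factor of 2 or more in stomach, 4 of them at least 4-fold, and 1 was lower by 2-fold or more. The list median was 1.33, against 0.15 for all genes. Barx1, Nkx6-2 and Tlx1, named beforehand as markers, are among the 4, and Nkx6-2 and Tlx1 entered at a bound. Over the 11 members measured on both arrays 6 were higher by 2-fold or more, 1 was lower and the median was 1.13. After normexp correction 8 of the 13 were higher, 2 of them past 4-fold, none was lower and the median was 1.08. Six2, a homeobox gene of the posterior stomach and pylorus, stood at −0.14 in stomach and −2.41 in esophagus, a difference of 2.28 (1.73 after normexp correction). Isl1, a LIM homeobox gene expressed in stomach mesenchyme, stood at 2.07 in stomach and 0.30 in esophagus. Pitx1, a paired-type homeobox gene, was bright on both arrays, with 6.23 in stomach and 4.66 in esophagus. Nkx2-5, a marker of the pyloric region as well as of the heart, stood at 0.99 in stomach and −0.14 in esophagus, a difference of 1.13. Most genes of the heart list described further on were lower in stomach, and the part of pyloric or heart tissue in the Nkx2-5 value was not tested. Nr2f1, a nuclear receptor, was higher by 1.33.

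Factors shared by gut mesenchyme differed little. Foxf1 and Foxf2, the forkhead targets of hedgehog signalling in gut mesenchyme, had differences of 0.39 and −0.69, and Nr2f2 had 0.74. Gata3 had a difference of −0.28. Sox9 was the only member of the list lower by a factor of 2 or more in stomach, at −1.07, and its 3 probes ranged from −1.58 to −1.07. On the intestine array Barx1, Six2, Nkx2-5 and Pitx1 (2.35) all read below both foregut organs, with Six2 at −5.26 and Nkx2-5 at −2.96.

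**Figure D2:**
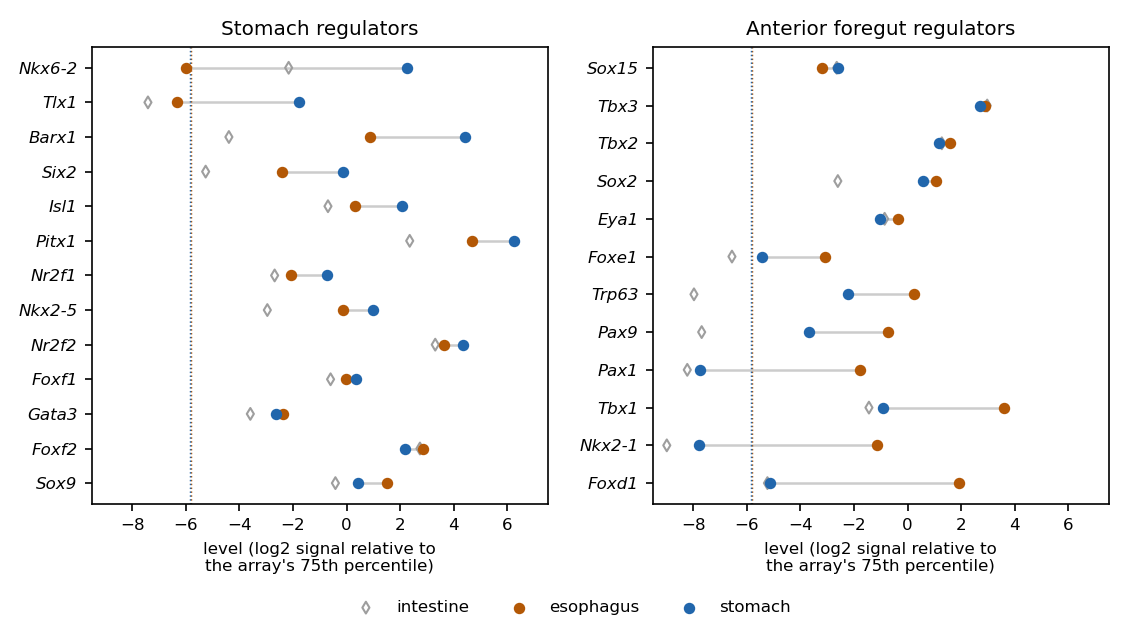
Levels (log2 signal relative to the array's 75th percentile) of the 13 measured stomach regulators and 12 of the 14 measured anterior foregut genes on the esophagus, stomach and intestine arrays, ordered by the stomach minus esophagus difference, with dotted lines at the lowest signal well above background in esophagus and stomach. Nkx6-2, Tlx1 and Barx1 show the widest gaps in favour of stomach, and Foxd1, Nkx2-1, Tbx1 and Pax1 the widest in favour of esophagus.

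Hox genes assign position along the head-to-tail axis, with higher paralog numbers expressed further back. The differences were concentrated in the middle of the HoxB cluster and at its HoxA counterpart. Hoxa7 stood at 4.36 in stomach and −0.61 in esophagus, which is 31.2-fold. Hoxb7 stood at 2.51 in stomach and −1.65 in esophagus, 17.9-fold. Hoxb8 stood at 0.62 in stomach and −3.70 in esophagus, 19.9-fold. Hoxb6 was higher by 2.70, Hoxa6 by 1.64 and Hoxb5 by 1.38. Hoxb9 was higher by 1.80 on one probe and 2.15 on the other, whereas Hoxa9 (0.10) and Hoxd9 (0.10) were nearly equal on the arrays.

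The anterior paralogs were mostly within 2-fold. Hoxa2 to Hoxa5 had differences from −0.02 to 0.62 and Hoxb2 to Hoxb4 from −0.25 to 0.47. Hoxb1 was the exception, at −1.63 in stomach and −5.28 in esophagus, a difference of 3.65 that fell to 1.49 after normexp correction. By cluster, 6 of 9 measured HoxB genes and 2 of 8 measured HoxA genes were higher by 2-fold or more in stomach, with medians of 1.80 and 0.54 (6 HoxB genes and 1 HoxA gene after normexp correction). Of 3 measured HoxC genes none was higher by a factor of 2 or more, and Hoxc9, dim in stomach and at −3.81 in esophagus, was at a bound of −2.03. The 3 HoxD genes measured on both arrays lay within 2-fold, and Hoxd4 was the highest at 0.94. Hoxd13 was dim in stomach, with a bound of −0.46 that does not limit its difference. On the intestine array Hoxa7 stood at 2.38, Hoxb7 at 2.04 and Hoxb8 at −1.75, between the stomach and the esophagus.

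**Figure D3:**
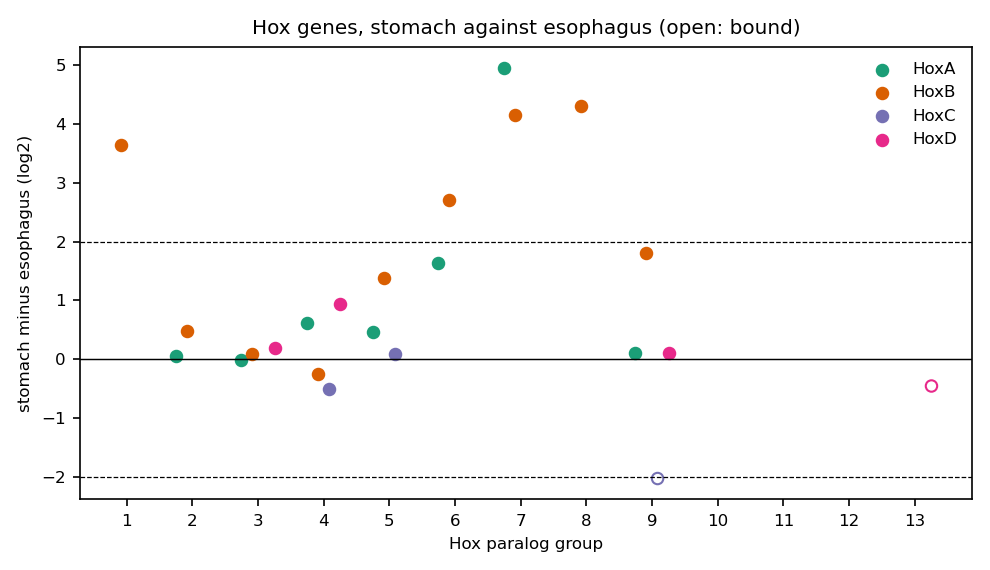
Stomach minus esophagus difference (log2) of the Hox genes reported here against the paralog group, coloured by cluster, with open circles for bounds and dashed lines at a 4-fold difference. Hoxa7, Hoxb6, Hoxb7, Hoxb8 and Hoxb1 lie above the upper dashed line, and groups 2 to 4 lie within 2-fold.

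Several of the largest differences in favour of stomach were in genes outside these families. Syt10, a synaptotagmin, stood at 3.19 in stomach and −4.49 in esophagus, which is 204-fold. Nepn, a leucine-rich repeat protein gene of gut endoderm, stood at 3.18 in stomach and was dim in esophagus, at least 507-fold. Adra2a, an adrenergic receptor, stood at 2.80 in stomach and −1.66 in esophagus, and its 3 probes gave 3.19 to 4.61. Colec10, a collectin, stood at 2.49 in stomach and −1.51 in esophagus. After normexp correction Syt10 stood at 5.54, Nepn at 5.52 and Colec10 at 3.52.

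Genes with several agreeing probes included St8sia3, a sialyltransferase (2.96 and 3.40), and Fzd5, a Wnt receptor of endoderm (1.94 and 2.81). Stk32a, a kinase gene, gave 1.97 and 2.13. Scin, an actin-severing protein gene, was dim in esophagus and at least 11.4-fold higher in stomach. Akr1c12 (at least 15.6-fold) and Akr1c19 (2.90 and 3.19) are aldo-keto reductases of a family of near-identical genes, and Saa1 (2.09 and 3.48) is a serum amyloid gene of another such family, so their probes may read relatives as well.

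Some transcription factors and surface genes of gut epithelium were higher in the stomach sample. In the list of gut endoderm factors 11 of 22 members measured were higher by 2-fold or more in stomach and 1 was lower by a factor of 2 or more, with a median of 0.84. Over the 16 members measured on both arrays, 6 were higher and the median was 0.37. Onecut1 and Onecut2, cut homeobox factors of endoderm, were higher by 2.71 and 2.54. Foxa3 was higher by 1.67. The bounds for Hnf4a (2.43), Pdx1 (2.09), Cdx2 (1.43), Hnf4g (1.27) and Isx (1.15) rested on signals of −3.38 or lower in stomach and a dim esophagus.

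Cdx2 stood at −4.37 in stomach against 1.85 on the intestine array, and Isx at −4.65 against 1.57. After normexp correction 3 of 22 members were higher by 2-fold or more, and the median was 0.43. Other endoderm factors of the list lay within 2-fold, among them Foxa1 (0.58), Foxa2 (−0.36), Gata4 (0.42) and Gata6 (−0.66). Sox17 (−0.32), also on the endothelial list, was within 2-fold as well. Klf5 was higher by 1.11 and Elf3 by 1.28. Grhl1, a grainyhead factor of surface epithelium, had probes at −1.46 and −0.61.

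Among genes of the epithelial surface 10 of 24 members measured were higher by a factor of 2 or more and none was lower by 2-fold or more, with a median of 0.53 (0.38 over the 22 measured on both arrays). After normexp correction 6 of 24 were higher, 2 of them past 4-fold. Agr2, a secretory-pathway isomerase of mucous cells, stood at 0.11 in stomach and −4.21 in esophagus (4.32, and 2.44 after normexp correction). Tspan8, a tetraspanin of gut epithelium, stood at −0.63 in stomach and −4.52 in esophagus, a difference of 3.89. Tff1, a gastric trefoil peptide, stood at −2.91 in stomach and was dim in esophagus, a bound of 2.61. Vil1, the microvillus protein villin, gave 2.32 and 2.73 on its probes, and Lgals4, a galectin, gave 2.29 on both. The keratins of simple epithelium, Krt8 (1.55), Krt18 (1.71) and Krt19 (1.07), were higher in stomach, whereas Krt7 was at 0.06. Cdh1, the epithelial cadherin, was at 0.00 in esophagus and −0.16 in stomach, and the claudins Cldn3, Cldn4, Cldn6, Cldn7, Cldn9, Cldn18 and Cldn23 ranged from −0.17 to 0.77.

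In the list of basal and squamous epithelial genes 8 of 15 members measured were lower by a factor of 2 or more in stomach, 3 of them at least 4-fold, and none was higher by 2-fold or more, with a median of −1.09. Trp63, named beforehand as a marker, is among the 3. Anxa8, an annexin of squamous epithelium, stood at 2.08 in esophagus and −0.75 in stomach. Perp, a desmosomal protein gene that Trp63 regulates, stood at 2.29 in esophagus and 0.07 in stomach. The basal keratins Krt5 (−1.88), Krt15 (−1.65) and Krt17 (−1.22) and the hemidesmosome integrin Itgb4 (−1.09) were lower as well. Krt14 (0.08), Krt13 (0.28) and Lor (0.51) were within 2-fold. Sfn, a squamous 14-3-3 protein gene, had probes at −2.15 and 0.01 that disagree. After normexp correction 5 of 14 members measured were lower by a factor of 2 or more, with a median of −0.59.

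**Figure D4:**
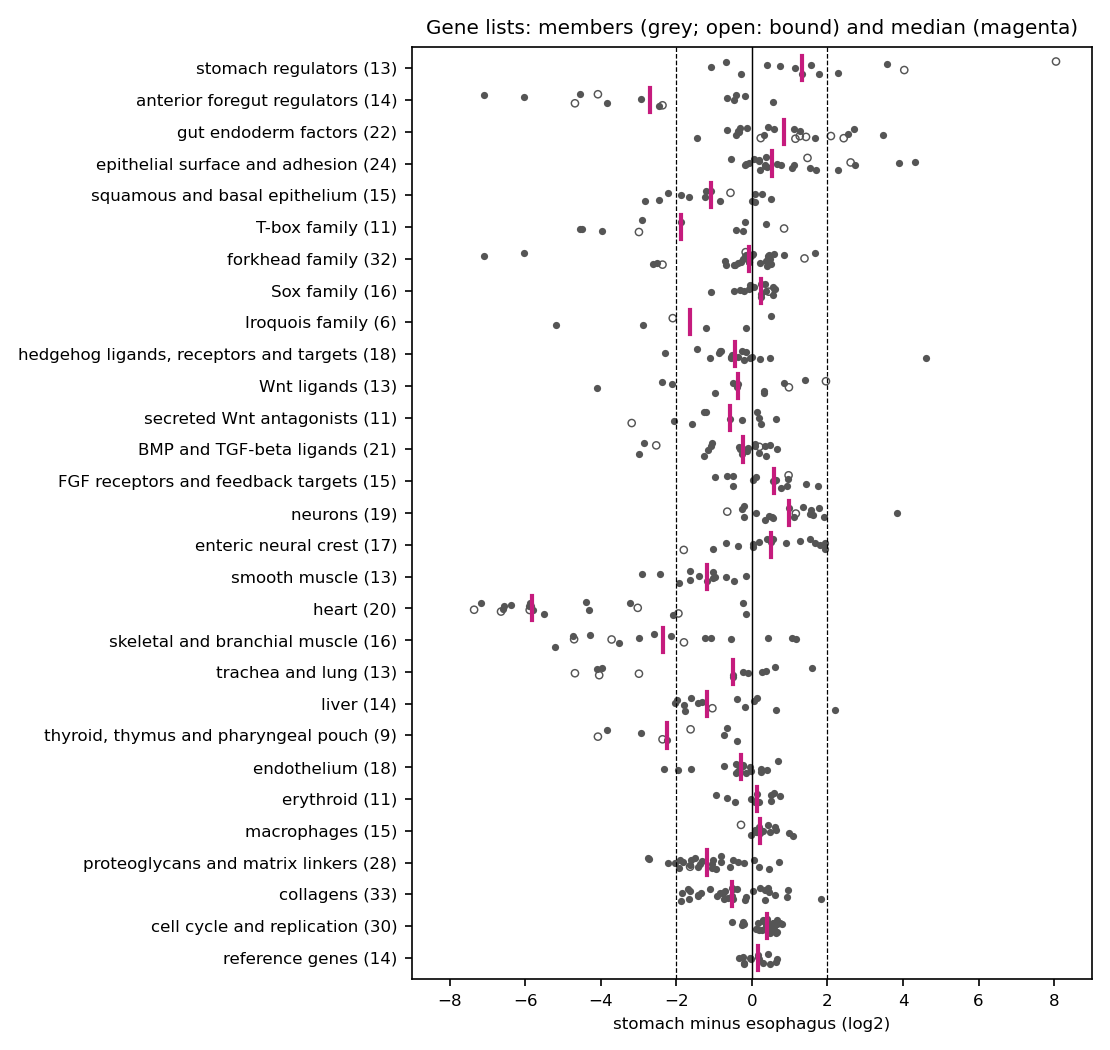
Stomach minus esophagus difference (log2) of the measured members of a selection of the gene lists, without the Hox lists. The number of members is in brackets, with open circles for bounds, a magenta bar at the list median and dashed lines at a 4-fold difference. Among the lists shown, the heart list lies lowest, with a median of −5.82, and the stomach regulators highest, with a median of 1.33. The HoxB list, which is not shown, had a median of 1.80. The cell cycle, erythroid and reference lists stay within 2-fold, as did 92.0% of all genes measured on both arrays.

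The esophagus array carried a set of transcription factors known from the pharynx and the anterior foregut. In the anterior foregut list 9 of 14 members measured were lower by 4-fold or more in stomach and none was higher by a factor of 2 or more, with a median of −2.70. Tbx1 and Trp63, named beforehand as markers, are among the 9. Foxd1, a forkhead factor of head mesenchyme and kidney stroma, stood at 1.93 in esophagus and −5.15 in stomach, which is 135-fold lower. Pax9, a paired-box gene of pharyngeal pouches, stood at −0.72 in esophagus and −3.66 in stomach, and Pax1 at −1.76 in esophagus and dim in stomach, a bound of −4.07. Nkx2-1, the regulator of trachea, lung and thyroid, stood at −1.16 in esophagus and was dim in stomach, a bound of −4.68. Members shared by the foregut were nearly equal, with Sox2 at −0.47, Tbx2 at −0.41, Tbx3 at −0.19 and Eya1 at −0.66.

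Markers of the thyroid and pharyngeal pouches moved with this group. In that list 6 of 9 members measured were lower by 2-fold or more in stomach, with a median of −2.25, and its summed signal relative to the 75th percentile was 3.30 in esophagus and 1.12 in stomach. Of its defining markers Pax8, Gcm2 and Foxn1 were dim on both arrays, and Foxe1 stood at −3.08 in esophagus and was dim in stomach (a bound of −2.36). Pax1, Pax9, Eya1 and Foxe1 are among the genes on both lists. The part of pharyngeal tissue in the result was not tested. After normexp correction 8 of 14 anterior foregut genes were lower by a factor of 2 or more and 4 at least 4-fold, with a median of −1.40, and the pouch list had 3 of 9 lower by 2-fold or more. Over the members measured on both arrays the medians were −2.46 for the 11 anterior foregut genes and −1.50 for the 6 pouch genes.

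Whole gene families were uneven. Of 11 measured T-box genes 6 were lower by a factor of 2 or more in stomach and none higher, with a median of −1.88 (−0.39 after normexp correction). The marker Tbx1 is among the 6. Tbx5, a factor of heart, forelimb and lung mesenchyme, stood at 2.40 in esophagus and −1.56 in stomach. Tbx18, of the epicardium, and Tbx20, of the myocardium, had differences of −4.48 and −2.90, and Tbx4, of lung and hindlimb, was at a bound of −2.99. Of 6 Iroquois genes 4 were lower by 2-fold or more, led by Irx1 at 2.85 in esophagus and −2.34 in stomach and by Irx2 at −2.89 and −3.16 on its probes, whereas Irx4 (0.50) and Irx6 (−0.17) were within 2-fold. After normexp correction 2 of 6 were lower and the median moved from −1.65 to −0.34. Among 32 measured forkhead genes 5 were lower by a factor of 4 or more, Foxc1 (−2.61) and Foxc2 (−2.51) of head and vessel mesenchyme among them, and 2 were higher by 2-fold or more. After normexp correction these forkhead counts were 3 and 0, and the T-box count was 4. Of the 15 Sox genes measured on both arrays 14 (93.3%) lay within 2-fold, near the 92.0% of all genes measured on both.

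Among 8 measured NK homeobox genes 5 were higher by a factor of 2 or more in stomach (3 after normexp correction) and 2 lower by 2-fold or more. The marker Nkx6-2, at a bound, is among the 5. Nkx2-3, a factor of gut mesenchyme and spleen, stood at −0.86 in stomach and −3.89 in esophagus, a difference of 3.03 (1.55 after normexp correction), and at 2.94 on the intestine array. Nkx6-1 went against its relative Nkx6-2, at 2.53 in esophagus and 1.07 in stomach. Nkx1-2 and Nkx2-6 were both higher by 1.16, from levels of −4.89 and −3.45 in esophagus.

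Hedgehog ligands are secreted by gut endoderm and read by the mesenchyme through Ptch1 and Gli factors. The ligands differed in sign. Ihh stood at −0.67 in stomach and −5.29 in esophagus, a difference of 4.62 (2.11 after normexp correction), Shh at −1.42 and −0.90, a difference of −0.52, and Dhh at −2.57 in stomach and −1.46 in esophagus. The receptors and targets stayed close, with Ptch1 at −0.14, Gli1 at 0.01, Gli2 at −0.06, Gli3 at −0.25 and Hhip at −0.87. The coreceptor Boc had a difference of −1.44 and Cdon one of −0.85. Scube1, which helps release the ligand, had probes at −2.29 and −0.03 that disagree. The list of 18 had 1 member higher by a factor of 2 or more and 3 lower by 2-fold or more, with a median of −0.45. Over all genes 4.14% were higher and 5.71% lower by that factor.

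Wnt ligands and antagonists were lower in stomach for several members. Wnt2, a ligand of lung mesenchyme, stood at 1.71 in esophagus and −2.38 in stomach, a difference of −4.08. Wnt7b, of lung epithelium, had a difference of −2.38 and Wnt6 one of −2.12. Wnt1 (1.40) and Wnt16 (a bound of 1.96) were higher from low levels and stood at 0.55 and 0.51 after normexp correction. Wnt5a (−0.40), Wnt11 (0.33) and Wnt5b (0.84) were within 2-fold. Of 13 measured ligands 2 were higher by a factor of 2 or more and 3 lower by 4-fold or more (0 and 1 after normexp correction). Over all genes 4.14% were higher by 2-fold or more and 1.58% lower by 4-fold or more.

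Of 11 measured secreted Wnt antagonists 5 were lower by a factor of 2 or more and none higher, with a median of −0.58. Sfrp2, an antagonist linked to Barx1 in the stomach, stood at 3.84 in esophagus and 1.79 in stomach, and Sfrp1 at 4.57 and 4.70. Frzb (−1.58), Wif1 (−1.22) and Notum (−1.27) were lower, and Cer1 was at a bound of −3.18. After normexp correction 1 of 11 was lower by 2-fold or more. Among receptors and R-spondins, which enhance Wnt signals, Rspo2 (−2.41) and the feedback ligase Rnf43 (−1.15) were lower and the receptor Fzd5 (2.81) was higher. In this list 19 of 22 measured members (86.4%) lay within 2-fold, against 92.0% of all genes measured on both arrays. Of the Wnt targets Axin2 (−0.33), Sp5 (0.14) and Lgr5 (−0.68, from the receptor list) were within 2-fold, Lef1 (−1.28) was lower and Ascl2 (1.49) was higher. Of 11 measured targets 1 was higher and 2 lower by 2-fold or more (0 and 1 after normexp correction). The shares of all genes were 4.14% and 5.71%.

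BMP and activin ligands pattern the foregut along its back-to-belly axis. Of 21 measured BMP and TGF-beta ligands 7 were lower by a factor of 2 or more in stomach and none was higher by 2-fold or more, and 3 were lower after normexp correction. Inhba, the activin subunit, stood at 2.09 in esophagus and −0.88 in stomach, a difference of −2.98. Bmp3 was lower by 2.84, and Bmp2 was at a bound of −2.53 that stood at −0.45 after normexp correction. Bmp4 (−0.24), Bmp7 (0.48) and Tgfb3 (−0.31) were within 2-fold, and Tgfb2 was lower by 1.09. Among the antagonists Bmper (−3.61 and −3.27 on its probes) and Sostdc1 (−2.60) were lower and Fst, which binds activin, was higher by 1.37. Noggin, the gene Nog, was equal at −0.01. Of 9 measured target genes 3 were higher by a factor of 2 or more, Id4 (1.12), Msx1 (1.38) and Hand1 (a bound of 2.31), and Id1 (0.50), Id2 (0.27) and Id3 (−0.22) were within 2-fold. After normexp correction none of the 9 was higher by 2-fold.

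FGF signalling drives growth of foregut buds from mesenchyme to epithelium. Fgf10 stood at 0.19 in stomach and −1.38 in esophagus, a difference of 1.58, and Fgf9 was higher by 1.02. Fgf7, dim in stomach, was at a bound of −1.37. Feedback targets of FGF were on balance higher, with Etv4 at 1.74, Etv1 at 1.43, Dusp6 at 0.96 and Spry1 at 0.92, but Etv5 was at −0.51, and only 2 of the 15 measured receptors and targets were higher by 2-fold or more, with a median of 0.58. Of 13 measured FGF ligands 3 were higher by a factor of 2 or more and 2 lower by 2-fold or more (1 and 0 after normexp correction). The shares of all genes were 4.14% higher and 5.71% lower.

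Of 19 measured retinoic acid genes 14 (73.7%) lay within 2-fold, against 92.0% of all genes measured on both arrays. In this list 1 was higher and 4 were lower (1 and 2 after normexp correction). Aldh1a2, which makes retinoic acid in mesenchyme, stood at 4.09 in stomach and 3.57 in esophagus. Aldh1a1 (−1.52), Aldh1a3 (−1.32) and Cyp26a1, which degrades retinoic acid (−2.89), were lower. The receptors Rara (−0.02), Rarb (0.30) and Rxra (0.07) were nearly equal, Rarg was at −0.84 and Rxrg was lower at −1.16. In the Notch list of 21 measured members the ligands Dll1 (1.79) and Dll3 (1.60) and the target Hes5 (1.07) were higher in stomach, and the ligands Jag1 (−1.18) and Jag2 (−1.37) lower, and after normexp correction 2 of 21 were higher and 0 lower. Notch1 to Notch4 and Hes1 lay between −0.78 and 0.09. Of 18 measured ephrins and Eph receptors 3 were lower by a factor of 2 or more, Epha5 (−2.05), Epha3 (−1.73) and Epha7 (−1.13), with 1 lower after normexp correction. Of 26 measured semaphorins, plexins and neuropilins 5 were lower by a factor of 2 or more and 1, Sema3b (1.12), was higher. Over all genes 5.71% were lower and 4.14% higher by that factor. After normexp correction 1 of 25 was lower and 0 were higher. Sema3e was lower by 2.92, with 3 probes from −3.45 to −2.66.

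Neurons and their crest precursors enter the gut by way of the foregut. Among genes of neurons 9 of 19 measured members were higher in stomach by 2-fold or more and none lower by a factor of 2 or more, with a median of 0.99. After normexp correction 6 of 18 were higher, with a median of 0.63. Cartpt, a neuropeptide gene, stood at 1.95 in stomach and −1.89 in esophagus, and its 2 probes gave 3.84 and 3.85. Tubb3 (1.56), Elavl3 (1.63), Elavl4 (1.54), Stmn2 (1.35) and Dbh, an enzyme of noradrenaline synthesis (1.92), were higher, whereas Nefl and Nefm (both −0.22) and Gap43 (0.34) were within 2-fold. In the enteric crest list 6 of 17 were higher by 2-fold or more, among them the GDNF receptor Ret (1.94), its ligand Gdnf (1.93), Hand2 (1.81) and Phox2a (1.66). The receptor Ednrb was lower by 1.03 and the coreceptor Gfra2 was at a bound of −1.80. Foxd3 (0.49) and Gfra1 (0.40) were within 2-fold, and Sox10 had no named probe. After normexp correction 4 of the 17 crest genes were higher by 2-fold or more, and Ret stood at 0.73.

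Heart genes made up the largest differences in favour of esophagus. In the heart list 18 of 20 members measured were lower by a factor of 2 or more in stomach and 17 at least 4-fold, with a median of −5.82. Summed over its members, the signal came to 144 on the esophagus array, 4.22 on the stomach array and 4.93 on the intestine array. Mybpc3, a cardiac myosin binding protein, stood at 3.18 in esophagus and −3.98 in stomach, 144-fold lower. Myh6, the atrial myosin, stood at 1.99 in esophagus and −4.59 in stomach. Myl7, the atrial light chain, stood at 6.01 and 0.16, and Tnnt2, cardiac troponin T, at 3.49 and −2.31. Nppa, an atrial hormone, stood at 1.09 in esophagus and −4.41 in stomach.

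None of the other measured members of the heart list read higher in stomach. Tnnc1 (82.2-fold), Cox6a2 (94.5-fold) and Myl4 (−7.40 and −5.90 on its probes) were lower, as were Tnni3 (−4.64 and −4.30) and Tnni1 (−3.22 and −2.89). Csrp3, Sln and Ankrd1 were dim in stomach and at least 163-fold, at least 99.5-fold and at least 58.8-fold lower. Hcn4, of the pacemaker (−0.16), and Nppb (−0.23) were within 2-fold. Myl3 had probes at −5.86 and −0.57 that disagree. Myl2, the ventricular light chain, was at −2.55 in esophagus and dim in stomach. After normexp correction 16 of 20 were lower by 2-fold or more, with a median of −3.40. The T-box genes Tbx5, Tbx18 and Tbx20, lower in stomach, are also genes of the heart. Nkx2-5, a heart marker outside the list, went the other way and was higher in stomach by 1.13. The part of heart tissue in the other genes higher in esophagus was not tested.

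Most skeletal and branchial muscle genes were also lower in stomach. In that list 12 of 16 members measured were lower by a factor of 2 or more, 9 at least 4-fold, and 2 higher by 2-fold or more, with a median of −2.35. The summed signal was 12.2 in esophagus and 7.26 in stomach. Myog, the myogenic factor of differentiating muscle, stood at 0.23 in esophagus and −4.97 in stomach, and Myod1 at −2.36 and −4.94. Myf5 was dim on both arrays. Chrng and Chrna1, acetylcholine receptor subunits of embryonic muscle, were at bounds of −4.70 and −3.71, and Tnnc2, fast troponin C, was lower by 4.72. Myh8 (−4.29) and Myh4 (at least 41.9-fold lower) belong to a cluster of similar myosin genes and may be read together. Actn2, of the Z-disc, was at least 33.8-fold lower. Tcf21 (1.16), which is also a gene of visceral mesenchyme, was higher. After normexp correction 7 of 16 were lower by a factor of 2 or more, 4 of them past 4-fold, with a median of −0.67.

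Smooth muscle genes were lower by smaller steps. Of 13 measured members 9 were lower by 2-fold or more and none higher, with a median of −1.20. Myh11, smooth muscle myosin, stood at 1.28 in esophagus and −1.62 in stomach, Cnn1, calponin, at 4.76 and 2.32, and Tagln at 4.78 and 2.85. Myocd, the coactivator that switches these genes on, was lower by 1.04. Acta2 had 3 probes from −3.12 to −0.46, and Smtn (−0.17) and Mylk (−0.69) were within 2-fold. The heart genes moved in the same direction, and embryonic heart muscle shares several smooth muscle genes. The part of heart tissue in the smooth muscle values was not tested.

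**Figure D5:**
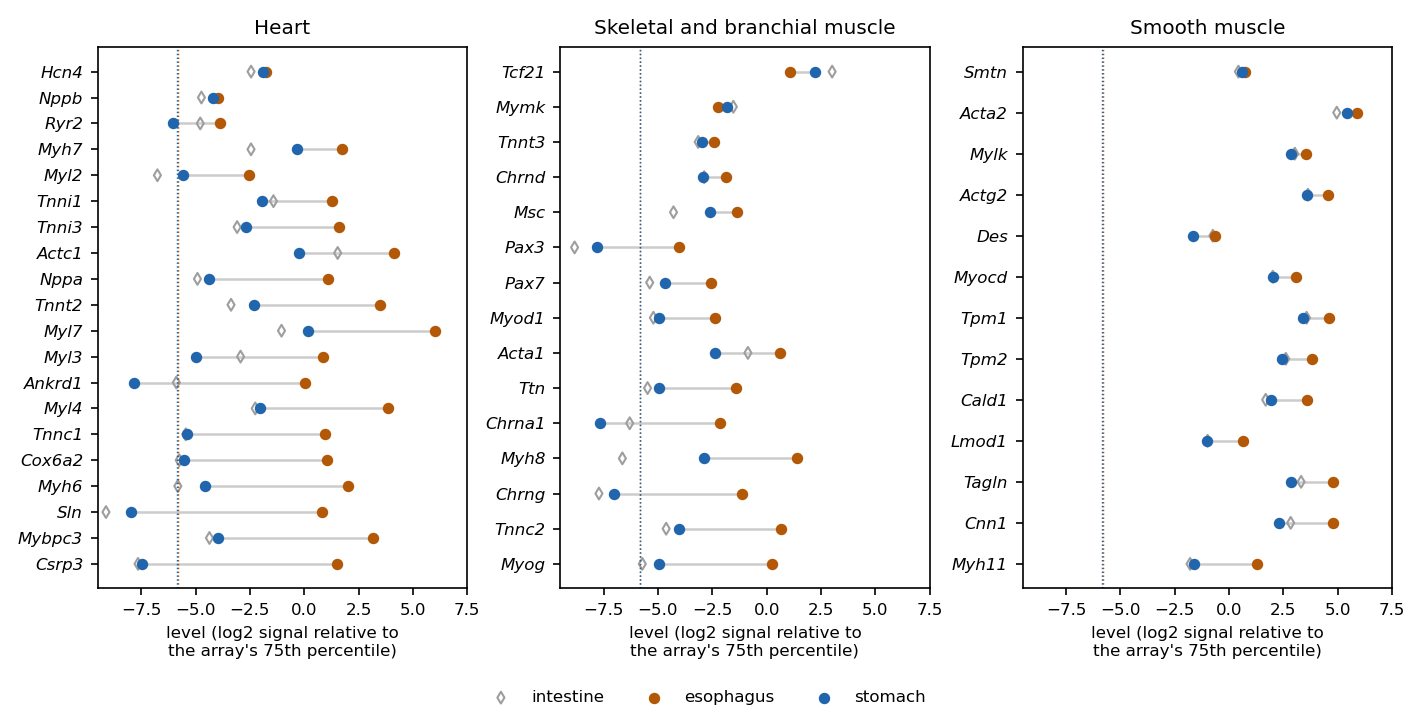
Levels (log2 signal relative to the array's 75th percentile) of the heart, skeletal and branchial, and smooth muscle genes reported here on the esophagus, stomach and intestine arrays, ordered by the stomach minus esophagus difference, with dotted lines at the lowest signal well above background in esophagus and stomach. For most heart and skeletal genes the stomach and intestine points lie together and far below the esophagus point, and in the smooth muscle panel the gap is narrower.

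Some airway markers were higher in esophagus. In the trachea and lung list 5 of 13 members measured were lower by a factor of 4 or more in stomach and 1 was higher by 2-fold or more, with a median of −0.49. Another 7 lay within 2-fold, and over the 10 members measured on both arrays the median was −0.17. The 5 were Nkx2-1, Wnt2, Tbx5, Tbx4 and Sftpc, a surfactant gene at −1.80 in esophagus and dim in stomach (a bound of −4.04). Id2 (0.27), Etv5 (−0.51) and Bmp4 (−0.24), which are not limited to the lung, were within 2-fold. The list's summed signal was 27.5 in esophagus and 21.8 in stomach, and most of it came from Id2. The part of airway tissue in the anterior foregut and Wnt values was not tested. After normexp correction 2 members were past 4-fold, and Sftpc stood at −1.08 and Nkx2-1 at −1.74.

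Genes of liver, pancreas, spleen and mesothelium were examined as markers of other tissues. Of 14 measured liver genes 8 were lower by a factor of 2 or more in stomach and 1 higher by 2-fold or more, with a median of −1.18. After normexp correction 2 were lower and the median was −0.24. The part of liver tissue in the results was not tested. Alb stood at −0.42 in esophagus, −2.45 in stomach and 2.93 in intestine, Afp at 3.06, 1.45 and 5.58, and Ahsg was lower by 1.98. Apoa1 (0.64) was within 2-fold, Ttr was dim on both arrays, and Ambp was higher by 2.20. Summed over the liver list, the signal came to 22.3 on the esophagus array, 19.8 on the stomach array and 129.9 on the intestine array. Most of the stomach sum came from Ambp and from Tbx3, which is also on the anterior foregut list. Of the pancreas markers Ptf1a was dim on both arrays and Cpa1 was within 2-fold at 0.37. In the spleen list, besides Tlx1 and Nkx2-5, Wt1 stood at 0.58. Mesothelial Upk3b (−0.14) was close, and Msln, mesothelin, was higher by 2.42. Of 13 measured genes of mesothelium and coelom, Msln included, 3 were higher by 2-fold or more, with a list median of 0.27. Another 2 were lower by 2-fold or more, Tbx18 (−4.48) and Osr1 (−1.05).

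Blood, vessel and immune genes were mostly within 2-fold. All 11 measured erythroid genes lay within 2-fold (10 after normexp correction), with Hba-x at 0.57 and Hbb-y at 0.75, and the globins are near-identical genes. In the endothelial list 15 of 18 (83.3%) lay within 2-fold, against 92.0% of all genes measured on both arrays. Pecam1 was at −0.73, Cdh5 at −0.23 and Kdr at −0.15, while Lyve1 (−2.31), Erg (−1.95) and Tek (−1.60) were lower. The macrophage genes Csf1r (0.07, with probes from −0.84 to 0.36) and Cx3cr1 (−0.02) were within 2-fold. Xist, the transcript of the inactive X, stood at 0.37 in esophagus and −1.13 in stomach, and the Y-linked Ddx3y and Eif2s3y were higher by 0.98 and 1.16. Uty and Kdm5d had differences of 0.22 and 0.50, and the part of the embryos' sex in the results was not tested.

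Many small leucine-rich proteoglycan and matrix linker genes were higher in the esophagus sample. Of 28 measured proteoglycans and matrix linkers 17 were lower by a factor of 2 or more in stomach, 4 of them at least 4-fold, and none was higher by 2-fold or more, with a median of −1.19. After normexp correction 12 were lower, none of them past 4-fold, and the median was −0.93. Dcn, decorin, stood at 5.14 in esophagus and 3.71 in stomach, Lum, lumican, at 3.24 and 1.75, and Vcan, versican, at 2.90 and 1.28. Kera (−2.75), Thbs2 (−2.73), Tnc and Prelp (−2.02) were the 4 past 4-fold, and another Tnc probe gave a smaller difference. Fbln1 (0.07), Mfap2 (−0.36) and Bgn (−0.58) were within 2-fold.

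Collagens followed in part. Of 33 measured collagen genes 9 were lower by a factor of 2 or more and 1 higher by 2-fold or more, with a median of −0.53. Over all genes 5.71% were lower and 4.14% higher by that factor. Col1a1 (−1.43), Col6a1 (−1.35) and Col13a1 (−1.70) were lower, whereas Col3a1 (−0.19), Col5a1 (−0.15) and Col18a1 (0.22) were close and Col14a1 was higher by 1.83. The cartilage genes Col2a1 (−1.12) and Col9a1 (−1.64) were lower and Acan was within 2-fold. In the list of laminins, integrins and basement membrane 8 of 30 were lower by a factor of 2 or more and 2 higher by 2-fold or more, with Frem2 (−1.66) and Itga11 (−1.24) lower and Itga3 (1.13) and Itgb6 (1.02) higher. After normexp correction 4 were lower and 1 was higher.

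Genes with several probes that agreed on lower levels in stomach included Prrx1, a homeobox gene of limb and head mesenchyme, at 3.01 in esophagus and −0.09 in stomach with 3 probes from −4.04 to −3.10. Mia, a secreted protein gene of cartilage, had 3 probes from −3.28 to −2.89. Vsnl1, a calcium sensor, gave −3.37 and −2.96, and Slc14a1, a urea transporter, gave −2.90 and −2.73.

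Genes of cell division and housekeeping differed little between the arrays, as did most genes. All 30 measured cell cycle and replication genes lay within 2-fold, against 92.0% of all genes measured on both arrays. Their median was 0.40, against 0.15 for all genes. Mcm5 was at 0.74, Rrm1 at 0.80 and Cdk2 at −0.54. All 14 measured reference genes lay within 2-fold, also near the share of all genes, with a median of 0.16, from Ywhaz at −0.33 to Tfrc at 0.66. Of 23 glycolysis and hypoxia genes 22 (95.7%) lay within 2-fold, against 92.0% of all genes measured on both arrays.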

How the data were processed

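Signals came from 1-colour Agilent arrays whose scans went through Agilent Feature Extraction, version 10.5.1.1 according to the headers. The intensity values used were the processed signals the scanner software had deposited, which are already background-subtracted. The authors' deposited value table gives log2 values of the same arrays, and after 1 constant per array 99.8% to 99.9% of its probes lay within 0.01 of log2 of the scanner signal. Its column medians were −2.97, −3.17 and −3.47 for esophagus, stomach and intestine, and how it was scaled is not given in the sources used here.

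From the intensities, control spots and outlier spots were left out, spots of a probe were averaged and each array's 75th percentile (393, 334 and 1023) was subtracted on the log2 scale. Of 41174 probes 41112 had a value on every array, and 24342 of these carried 1 gene symbol. The symbols came from matching the transcript accession given for a probe to RefSeq genes. A dim probe took the higher of its own level and the lowest level well above background, which was −5.81 in esophagus and −5.84 in stomach, as a bound. For 3 further genes the bound was under 1-fold and no value is given. Summed signals of a list add its members' linear signals relative to the 75th percentile. The genes named by size are, in each direction, the 10 largest differences measured on both arrays, the 5 largest bounds and the 10 with the largest smallest-probe difference; 2 genes that met this rule and some list members are not reported here. The 54 gene lists hold 899 genes, of which 850 had a probe, and members and lists were chosen with earlier results of these data known. The counting step was checked on simulated data. With 1 array per organ the number of arrays limits the precision. R 4.3.3 with limma 3.58.1 (normexp, offset 50) and Python 3.11.15 were used.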

Additional observations from a re-analysis of the deposited data

How the results depend on the processing

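Of 7 alternatives, 2 moved the counts of genes at least 4-fold higher and lower by more than 1.5 times. Normexp background correction gave 28 and 60, and no filter on dim probes gave 184 and 350. Of the single genes, Fgf14 (−1.02) turned to 0.013 after normexp correction, and 307 others were counted as moved. With 1 array per organ no replicate error stands behind that count, and the cause was not tested. The counts were 67 and 155 with signal required on both arrays, 88 and 206 with the median over the probes of a gene, 97 and 216 from the deposited value table, and 119 and 189 after quantile normalization, which made 38.6% of the 4-fold genes higher in stomach. No paired analysis was possible because the organs share fewer than 2 replicate numbers. Signal over background limits the dim genes, where most of the 4-fold differences lie.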

Other observations

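The values in this paragraph are of genes chosen after their values were seen, and they carry no count or test. Several genes of secretory cells read higher in stomach. Spdef, a factor of mucous and goblet cells, stood at −1.13 in stomach and −4.70 in esophagus. Atoh1, which directs intestinal secretory cells, stood at −2.36 in stomach and was dim in esophagus, a bound of 3.44. Cck, a gut hormone, stood at 3.14 in stomach and 0.40 in esophagus, and Scg5, a secretory granule protein gene, at 0.70 and −1.73. Guca2b was higher by 2.66, whereas Ghrl, the ghrelin gene, had a difference of 0.16.

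Mesenchyme factors of head and limb, also chosen after their values were seen, read higher in esophagus for several members. Prrx2 stood at 3.20 in esophagus and 1.14 in stomach, Twist1 at 1.17 and −1.04, and Snai1 at 1.75 and −0.43. Ebf2 (−3.56) and Ebf3 (−2.18) read lower in stomach. Snai2 was within 2-fold at 0.77, and Dlx2 (1.16) and Tcf15 (1.08) read higher in stomach. Among LIM homeobox genes Lhx6 (−3.17) and Lhx8 (a bound of −3.93) read lower in stomach, and Lhx9 (2.61) and Isl2 (3.47) read higher.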
